A study of Homo sapiens with 8 samples.

Results

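The genes of the nuclear lamina and of its links across the nuclear envelope were followed through the H3K4me3 and H3K27ac peaks of HL-60 cells, with and without all-trans retinoic acid (ATRA). They were taken from a list of genes linked to the lobulated nucleus of granulocytes, with no rule on their peaks. Earlier results of these data were known when the list was chosen. The listed genes are 10 of the 20090 protein-coding genes placed on the human assembly hg19 (GRCh37). The list holds the lamins LMNA, LMNB1 and LMNB2, the lamin and chromatin partners LBR, TMPO and BANF1, and the linker genes SUN1, SUN2, SYNE1 and SYNE2. For each gene the length under peaks was summed over the gene body and 20 kb on each side, and the peak over the transcription start site (TSS) was measured separately.

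HL-60 is an established human leukemia line of the promyelocyte stage, and all libraries came from this single line. The ATRA group received 1 µM ATRA for 4 days and the control group the same amount of the solvent, ethanol, with both renewed during the treatment. Each mark was measured in 2 libraries per condition, which gave 8 libraries in all. The labels do not say whether replicates came from separate cultures, so the p-values below measure the spread between libraries, which may be technical.

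The nuclear lamina is a meshwork of A-type and B-type lamins under the inner nuclear membrane. LBR and the LAP2 proteins made from TMPO tether B-type lamins and chromatin to it, while SUN proteins in the inner membrane and nesprins, made from SYNE genes, in the outer membrane form the LINC complex, which couples the nucleus to the cytoskeleton. Maturing granulocytes are known for much LBR and little lamin A, a composition that goes with a soft, segmented nucleus, and people who carry LBR mutations can have hypolobulated granulocytes, the Pelger-Huët anomaly. H3K4me3 marks active promoters, and H3K27ac marks active promoters and enhancers.

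The libraries differed in how much of the genome was under peaks. H3K4me3 gave 13241 to 16487 peaks per library, covering 47.7 to 63.2 Mb, and H3K27ac gave 15457 to 39332 peaks covering 28.8 to 86.1 Mb. For both marks the 2 ATRA libraries covered more than the 2 control libraries. By number of H3K27ac peaks the conditions overlapped, with 28200 in ATRA replicate 1 and 29616 in control replicate 2. The study's text orders the conditions the other way for both marks, by the number of peaks found in both replicates. In the deposited files, replicate 1 peaks that overlapped a replicate 2 peak were also more numerous in ATRA. They numbered 13753 in ATRA and 12035 in the control for H3K4me3, and 20578 and 12937 for H3K27ac. The files and the study's text thus differ in order by this kind of count as well, and the reason was not tested. The directions given here rest on the sample labels. Over all protein-coding gene regions tested, the median log2 change from control to ATRA was 0.17 for H3K4me3 and 0.54 for H3K27ac, and the changes of single genes are read against these shifts. Marker genes were read from H3K4me3 peaks over the TSS or within 1000 bp of it. The granulocyte genes ITGAM, ITGAX and CD38 all 3 had such a peak in both ATRA libraries, and 2 of 3 did in each control library. Their summed peak lengths were 11307 and 13157 bp in ATRA and 2413 and 1556 bp in the control. Of 8 myeloid genes 6 were marked in each ATRA library and 5 in each control library. Of these, the primary granule genes ELANE and AZU1 had no H3K4me3 peak within 1000 bp of the TSS in any library. PRTN3 had one there in the ATRA libraries alone. Of 8 genes of other cell types at most 1 was marked in any library, with at most 648 bp.

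The first question was whether H3K4me3 over these genes differed after ATRA. The mean log2 length under peaks was higher in ATRA for 8 of the 10 genes, and no gene passed the test. LBR and SYNE1 had the largest positive differences, LMNA and SUN1 had lower means, and both ATRA libraries lay above both control libraries for LBR, TMPO, BANF1, SUN2, SYNE1 and SYNE2. The values of every library are drawn gene by gene in the plot of length under peaks.

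**Figure D1:**
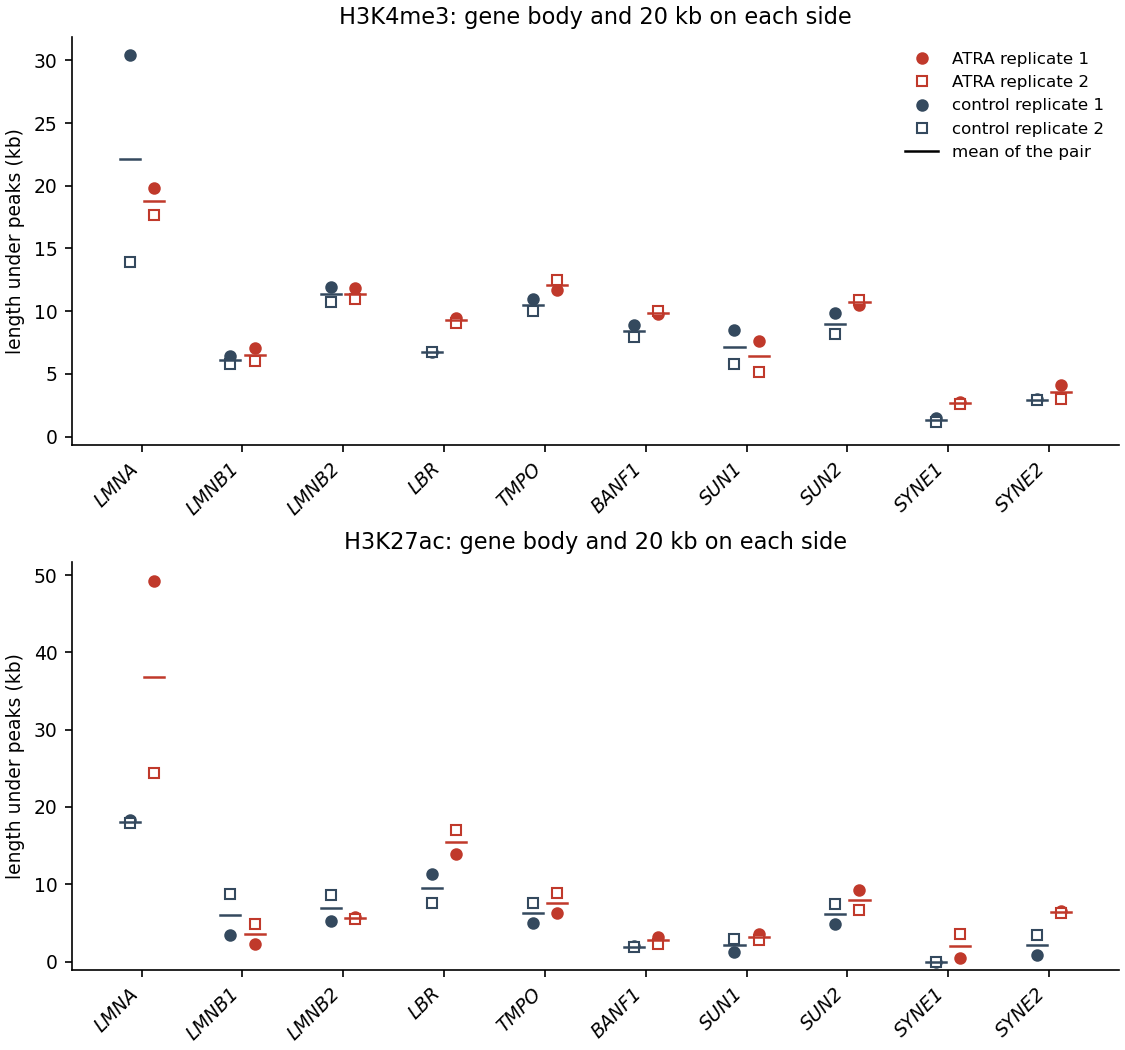
Length under peaks in kb over the gene body and 20 kb on each side, for H3K4me3 above and H3K27ac below, with 1 symbol per library and a short line at the mean of each pair. The widest gaps between replicates are those of LMNA, from 13913 to 30432 bp in the H3K4me3 control libraries and from 24393 to 49272 bp in the H3K27ac ATRA libraries.

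LBR makes the lamin B receptor of the inner nuclear membrane, and its only H3K4me3 region shared by all libraries lay over the canonical start. The bases around that start are shown because this region carried the widest separation of the conditions at a canonical start, with every CG in capitals (hg19, chr1:225615691-225615990, minus strand, from 250 bases before the start to 50 bases after it).

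LBR canonical start: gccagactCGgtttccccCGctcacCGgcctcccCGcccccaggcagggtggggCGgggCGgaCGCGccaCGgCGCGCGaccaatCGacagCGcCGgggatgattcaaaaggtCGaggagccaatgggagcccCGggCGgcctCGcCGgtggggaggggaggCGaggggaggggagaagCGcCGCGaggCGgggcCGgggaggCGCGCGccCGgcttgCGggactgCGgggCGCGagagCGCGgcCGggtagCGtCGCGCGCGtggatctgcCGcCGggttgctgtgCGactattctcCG

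The LBR window held 46 CG pairs, above the upper quartile of 32 over the same windows of all protein-coding genes, whose median was 23. The H3K4me3 peak over it spanned 9239 and 9021 bp in the ATRA libraries and 6150 and 6728 bp in the control libraries. Both ATRA peaks were longer than both control peaks, by 2691 bp on average.

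The longer LBR peaks of the ATRA libraries reached farther into the gene and not farther upstream. They ended 7610 and 7654 bp downstream of the start in ATRA and 4538 and 5106 bp downstream in the control, while the upstream edge lay at -1628 and -1366 bp in ATRA and at -1611 and -1621 bp in the control, with minus for bases before the start. The ratio of mean lengths was 1.42 against a median of 1.12 over the 10124 canonical starts under a peak in all 4 libraries, and 88.2% of those starts had a lower ratio. Over the whole LBR region the length under peaks was 9492 and 9021 bp in ATRA and 6750 and 6728 bp in the control, a log2 change of 0.41 ± 0.13 (SE, n = 2 libraries per condition), 0.24 above the median of all regions. The limma adjusted p was 0.419, and the unadjusted limma p was 0.0222.

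TMPO and BANF1 had a like direction with smaller steps. TMPO, which encodes the LAP2 proteins, had 7654 and 7676 bp at the start in ATRA and 7092 and 6745 bp in the control. BANF1, whose product BAF bridges DNA and LEM-domain proteins such as LAP2, had 9754 and 10011 bp in ATRA and 8672 and 7954 bp in the control. The ATRA libraries did not overlap the control libraries for either gene, but the ratios, 1.11 and 1.19, were near the median ratio of all starts. Their regions differed by 0.19 ± 0.14 and 0.21 ± 0.14 on the log2 scale (SE, n = 2 per condition), with limma adjusted p of 0.612 and 0.581. Both lay within 0.05 of the median of all regions, and the TMPO change turned to -0.0008 when each library was centred on that median. The BANF1 peak also lies over the start of EIF1AD, and the TMPO peak over that of TMPO-AS1, so the marks of these pairs cannot be told apart. Part of the TMPO region's sum is a block over the start of LINC02453, with 4035 and 4176 bp in ATRA and 3898 and 3255 bp in the control.

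The lamin genes showed no separation of the conditions over their H3K4me3 regions. LMNB1, a B-type lamin, had 7088 and 5991 bp in ATRA and 6403 and 5795 bp in the control, a log2 change of 0.08 ± 0.15 (SE, limma adjusted p = 0.833). LMNB2, the other B-type lamin, had 11825 and 10951 bp in ATRA and 11944 and 10770 bp in the control, a log2 change of 0.0043 ± 0.14 (SE, limma adjusted p = 0.992). More than the LMNB2 promoter lies in that sum: the block over the start of TIMM13 held 5353 and 4535 bp in ATRA and 5427 and 4734 bp in the control, and part of a GADD45B peak fell within the flank.

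At the LMNB2 start itself the peaks were 4515 and 4403 bp in ATRA and 4180 and 4121 bp in the control, which did not overlap but differed by 308.5 bp on average. The LMNB1 start had 5245 and 4529 bp in ATRA and 4844 and 5155 bp in the control. That LMNB1 block also covers the start of the noncoding gene LMNB1-DT. Both LMNB1 and LMNB2 lay under the median change of all regions and turned negative once centred on it, to -0.10 and -0.18.

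LMNA, which encodes lamins A and C, had the widest H3K4me3 coverage of the 10 genes and the widest spread. Its region held 19846 and 17712 bp in ATRA and 30432 and 13913 bp in the control, so both ATRA values lay between the control values. The log2 change was -0.13 ± 0.34 (SE, limma adjusted p = 0.888), and it was 0.41 without control replicate 1 and -0.67 without control replicate 2. Control replicate 1 alone had a single stretch of 7567 bp between 6.9 and 14.4 kb downstream of the canonical start. ATRA replicates 1 and 2 had 1215 and 323 bp there, and control replicate 2 had 0 bp. At the canonical start the LMNA peak was 6823 and 8417 bp in ATRA and 7404 and 3169 bp in the control. The ratio of mean lengths there was 1.44, and 89.5% of starts had a lower ratio, but the conditions overlapped. Another start at -32.1 kb was also under H3K4me3 in all 4 libraries, in a block that also covers the start of MEX3A. Part of the region's sum belongs to the start of SEMA4A, where the block held 3246 and 2743 bp in ATRA and 5217 and 4800 bp in the control.

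Among the LINC genes the mark lay away from the canonical start in 3 of 4 cases. No library of either mark had a peak over the canonical start of SUN1, SYNE1 or SYNE2. H3K4me3 lay in all 4 libraries over another annotated start of SYNE2, at -91.1 kb, and of SYNE1, at 335.2 kb and inside the gene. In SUN1 all 4 libraries had a peak over a group of upstream starts, of which the outermost, at -15.9 kb, was covered in 3 libraries, since the peak of ATRA replicate 2 began at -15705 bp. Over all protein-coding genes 50.4% of canonical starts were under H3K4me3 in all 4 libraries and 45.7% in none. The marked and unmarked starts of the nesprin genes are set out as pairs, since the CG pairs in capitals do not follow the mark in the same way in both genes.

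SYNE1 internal start, marked (chr6:152623222-152623521, minus strand): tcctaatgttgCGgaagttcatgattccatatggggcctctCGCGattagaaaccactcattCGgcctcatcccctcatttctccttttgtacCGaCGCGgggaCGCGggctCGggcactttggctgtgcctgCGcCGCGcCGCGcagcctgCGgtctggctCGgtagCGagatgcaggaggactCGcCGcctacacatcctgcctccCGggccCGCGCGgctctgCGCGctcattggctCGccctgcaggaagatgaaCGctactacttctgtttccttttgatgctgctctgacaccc
SYNE1 canonical start, unmarked (chr6:152958448-152958747, minus strand): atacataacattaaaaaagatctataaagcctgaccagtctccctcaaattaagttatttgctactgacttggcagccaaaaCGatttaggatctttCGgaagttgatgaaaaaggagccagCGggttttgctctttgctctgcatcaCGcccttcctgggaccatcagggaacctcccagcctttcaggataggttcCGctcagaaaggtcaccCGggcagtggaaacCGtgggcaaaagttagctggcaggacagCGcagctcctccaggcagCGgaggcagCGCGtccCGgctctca
SYNE2 upstream start, marked (chr14:64228367-64228666, plus strand): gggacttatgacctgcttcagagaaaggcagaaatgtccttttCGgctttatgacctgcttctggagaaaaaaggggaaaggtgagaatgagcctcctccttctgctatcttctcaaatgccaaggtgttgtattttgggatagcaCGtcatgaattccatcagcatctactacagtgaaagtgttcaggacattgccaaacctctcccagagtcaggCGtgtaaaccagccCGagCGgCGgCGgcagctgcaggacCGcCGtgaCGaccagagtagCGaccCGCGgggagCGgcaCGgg
SYNE2 canonical start, unmarked (chr14:64319472-64319771, plus strand): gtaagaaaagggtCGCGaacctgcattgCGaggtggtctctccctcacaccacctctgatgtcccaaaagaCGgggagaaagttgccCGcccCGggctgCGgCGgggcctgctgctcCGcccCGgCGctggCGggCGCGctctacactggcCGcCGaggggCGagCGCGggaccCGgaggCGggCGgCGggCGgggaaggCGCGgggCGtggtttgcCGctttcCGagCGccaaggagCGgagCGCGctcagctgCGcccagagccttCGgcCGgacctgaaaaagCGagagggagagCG

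In SYNE1 the marked window held 28 CG pairs and the unmarked window 12. In SYNE2 the order was the other way, with 15 in the marked window and 38 in the unmarked window.

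SYNE1 encodes the giant protein nesprin-1, and its internal start can give only transcripts that lack the first part of the gene. The H3K4me3 peak there spanned 2746 and 2607 bp in ATRA and 1473 and 1197 bp in the control. It was the only H3K4me3 peak of the whole SYNE1 region, which is 516.1 kb of gene body plus the flanks. Both ATRA peaks were longer than both control peaks, and the log2 change was 0.66 ± 0.23 (SE, n = 2 per condition), 0.49 above the median of all regions. The limma adjusted p was 0.43 and the unadjusted limma p 0.0262, and 94.7% of all gene regions had a lower change.

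SYNE2, which encodes nesprin-2, had 4126 and 3025 bp in ATRA and 3001 and 2874 bp in the control, a step of 0.21 ± 0.19 on the log2 scale (SE, limma adjusted p = 0.674). The ATRA values were the higher ones, though 3025 bp in ATRA lay close to 3001 bp in the control. SUN2, an inner membrane protein of the LINC complex, had 10490 and 10925 bp in ATRA and 9844 and 8166 bp in the control. The log2 change was 0.23 ± 0.15 (SE, limma adjusted p = 0.578). The peak over its canonical start overlapped between conditions, at 7654 and 7123 bp in ATRA and 7560 and 6090 bp in the control. A block over an upstream SUN2 start also covers the start of DNAL4. It held 2836 and 3529 bp in ATRA and 2284 and 2076 bp in the control. SUN1, the partner of SUN2, had 7637 and 5171 bp in ATRA and 8504 and 5748 bp in the control. The SUN1 log2 change was -0.13 ± 0.24 (SE, limma adjusted p = 0.835). Within each replicate number SUN1 was lower in ATRA, but the conditions overlapped, and the change was 0.11 without ATRA replicate 2 or without control replicate 1. The peak over GET4, which starts inside the SUN1 gene body, made up 3957 and 3375 bp of the ATRA values and 4056 and 3443 bp of the control values, and control replicate 1 had 1286 bp more within ADAP1 and COX19. The peak over SUN1's own upstream starts was 3294 and 1796 bp in ATRA and 3162 and 2305 bp in the control, higher in ATRA for replicate number 1 and lower for number 2.

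In the limma fit 0 of the 10 genes passed an adjusted p of 0.05 for H3K4me3, against 0.0501% of all 13981 regions called higher and 0.0215% called lower. At an unadjusted p under 0.05 there were 2, LBR and SYNE1, against 11.0% of all regions. Both ATRA libraries lay above both control libraries in 6 of 10 genes and below them in 0, against 42.8% and 3.38% of all regions. At the canonical start, 4 of the 7 marked genes were separated upward, against 41.3% of 10902 starts, and 0 downward, against 4.69%. Over any annotated start the count was 7 of 10, with a background of 41.3%. The median log2 change of the 10 genes was 0.20, beside 0.17 over all regions, and 6 genes lay above that median. More cells with the mark and more of the mark per cell cannot be told apart in these pooled cells.

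**Figure D2:**
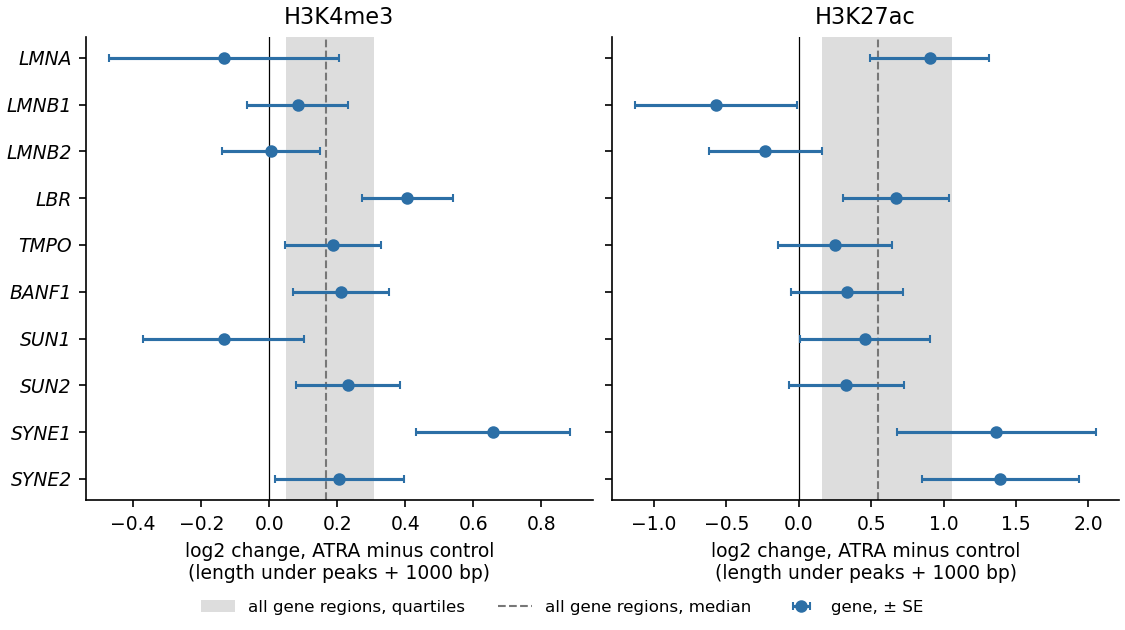
Log2 change in length under peaks with 1000 bp added, ATRA minus control, with its SE from limma for each gene, for H3K4me3 on the left and H3K27ac on the right. The dashed line and the gray band give the median and quartiles of all gene regions, at 0.17 and from 0.05 to 0.31 for H3K4me3 and at 0.54 and from 0.16 to 1.06 for H3K27ac. For H3K4me3 LBR and SYNE1 lie right of the band and LMNA, SUN1 and LMNB2 left of it, and for H3K27ac SYNE1 and SYNE2 lie right of it and LMNB1 and LMNB2 left of it, where the SYNE1 value rests on the added 1000 bp because its control libraries are at 0.

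The second question was whether H3K27ac differed over the same genes. LMNA, LBR, BANF1, SYNE1 and SYNE2 had a greater length under H3K27ac peaks in both ATRA libraries than in either control library. LMNB1 and LMNB2 had lower means in ATRA, in a mark whose all-region median was above 0. No gene passed the test, which took the libraries as unpaired, and the replicates were farther apart than for H3K4me3. Over overlapping peaks, the lengths of the ATRA replicates had a Spearman rho of 0.384 and those of the control replicates 0.39. For H3K4me3 the same values were 0.787 and 0.803 (peaks as points).

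LMNA had the longest H3K27ac coverage of the 10 genes in every library. It was 49272 and 24393 bp in ATRA and 18251 and 17948 bp in the control, in 12 and 10 peaks against 6 and 7. The log2 change was 0.90 ± 0.41 (SE, n = 2 per condition), 0.36 above the median of all regions, with a limma adjusted p of 0.305. The ATRA values lay above the control values, and the ATRA replicates differed from each other by more than the control mean. Without ATRA replicate 1 the LMNA change was 0.41, beside a median of 0.72 over all regions, and without ATRA replicate 2 it was 1.40, beside 0.37.

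The additional LMNA length lay between the upstream and the canonical start and inside the gene. Across the canonical start, from -17.3 to 1.9 kb, the peaks summed to 19181 and 7596 bp in ATRA and 996 and 4072 bp in the control. From 3.2 to 16.1 kb they summed to 12937 and 9767 bp in ATRA and 6770 and 7005 bp in the control. Another block, from 31.5 to 41.9 kb, lies over the start of the neighbor SEMA4A and had 9793 and 6005 bp in ATRA and 10165 and 6871 bp in the control, with no separation. The LMNA canonical start itself was under H3K27ac in ATRA replicate 1 and control replicate 2 alone. In ATRA replicate 2 a peak of 1124 bp began 210 bp downstream of it.

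LBR had 13945 and 17003 bp of H3K27ac in ATRA and 11378 and 7570 bp in the control, a log2 change of 0.67 ± 0.37 (SE, limma adjusted p = 0.375). Its start peak was 4412 and 4206 bp in ATRA and 4102 and 2631 bp in the control. A longer block lay upstream, from -24.6 to -12.2 kb, with 12241 and 9377 bp in ATRA and 8949 and 4939 bp in the control. Both blocks were longer in both ATRA libraries, and the change was 0.13 above the median of all regions. Without control replicate 2 the LBR change was 0.41, beside 0.80 over all regions. The mean difference of the start peak, 942.5 bp with all libraries, was 207 bp without control replicate 2 and 1678 bp without control replicate 1. No protein-coding gene body of another gene lay under the upstream block, whose outer end runs past the 20 kb flank.

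**Figure D3:**
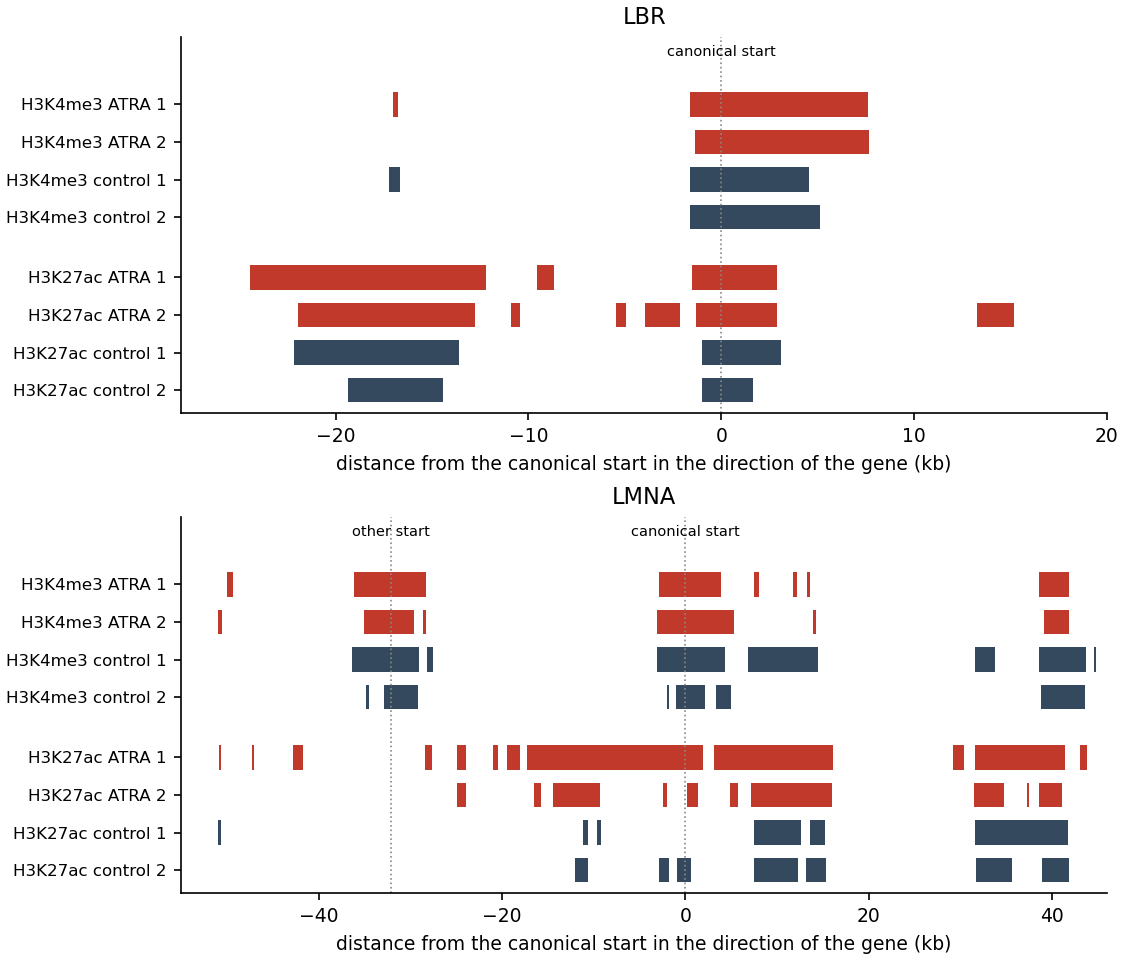
Peaks of each library as bars along LBR and LMNA, with the distance from the canonical start in kb on the x axis, read in the direction of the gene, and 1 row per library. In LBR the H3K4me3 bars end at 7610 and 7654 bp in ATRA and at 4538 and 5106 bp in the control, and in LMNA the longest H3K27ac bar, of 19181 bp, belongs to ATRA replicate 1 alone.

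LMNB1 went the other way at its start. The bases there are shown because this was the largest negative difference in H3K27ac at a canonical start among the 10 genes, again with CG in capitals (chr5:126112578-126112877, plus strand).

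LMNB1 canonical start: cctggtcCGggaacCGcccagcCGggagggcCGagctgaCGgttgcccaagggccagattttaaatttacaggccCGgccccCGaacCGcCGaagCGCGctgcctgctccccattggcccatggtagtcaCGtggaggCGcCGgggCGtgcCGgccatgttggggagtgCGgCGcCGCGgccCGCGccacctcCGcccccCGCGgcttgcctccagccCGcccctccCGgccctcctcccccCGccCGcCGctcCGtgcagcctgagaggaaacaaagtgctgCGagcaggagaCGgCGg

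The peak over the LMNB1 start was 0 and 2099 bp in ATRA and 2985 and 3468 bp in the control, a mean difference of -2177 bp. In ATRA replicate 1 a peak of 2091 bp began 72 bp downstream of the start, so the block around the start held 2091 and 2616 bp in ATRA and 2985 and 3468 bp in the control. Both ATRA libraries lay below both control libraries by either count, and without ATRA replicate 1 the mean difference of the peak over the start was -1127.5 bp. This stood beside 34 CG pairs in the window and an H3K4me3 peak over it in all 4 libraries. For both marks the block also covers the start of LMNB1-DT, so the marks of this pair cannot be told apart.

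Over the whole LMNB1 region the H3K27ac lengths overlapped, at 2295 and 4916 bp in ATRA and 3434 and 8688 bp in the control. The log2 change was -0.57 ± 0.56 (SE, limma adjusted p = 0.62), 1.11 below the median of all regions, and 3.85% of regions had a lower change. Within each replicate number ATRA was lower, with log2 changes of -0.43 and -0.71. Without control replicate 2 the change was -0.0062, beside 0.80 over all regions, and without control replicate 1 it was -1.13, beside 0.31. With the libraries centred on the all-region median and the replicate number as a block, a setting chosen after seeing the data, the change was -1.19 with a limma adjusted p of 0.0429, where 2.68% of regions were called lower and 6.3% higher.

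LMNB2 had 5738 and 5504 bp in ATRA and 5304 and 8573 bp in the control, a log2 change of -0.23 ± 0.39 (SE, limma adjusted p = 0.781). The peaks over the start of TIMM13 hold much of this, with 3177 and 4122 bp in ATRA and 3420 and 5773 bp in the control. At the LMNB2 start the peaks were 2561 and 790 bp in ATRA and 0 and 2258 bp in the control. In control replicate 1 a peak of 1884 bp began 112 bp downstream of that start. The conditions overlapped by each of these measures.

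BANF1 and TMPO kept their start peaks in every library. The BANF1 start had 1693 and 1739 bp of H3K27ac in ATRA and 1964 and 1906 bp in the control, lower in both ATRA libraries, with a mean difference of -219 bp. The BANF1 region as a whole was higher in both, at 3231 and 2234 bp against 1964 and 1906 bp, a log2 change of 0.33 ± 0.39 (SE, limma adjusted p = 0.677) that was -0.28 once centred. Every added BANF1 peak was in a single ATRA library. TMPO had 6336 and 8825 bp in ATRA and 4991 and 7508 bp in the control, a log2 change of 0.25 ± 0.39 (SE, limma adjusted p = 0.765) that was -0.37 once centred. The block over the start of LINC02453 made up 2644 and 2829 bp of the ATRA values and 1492 and 3552 bp of the control values.

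**Figure D4:**
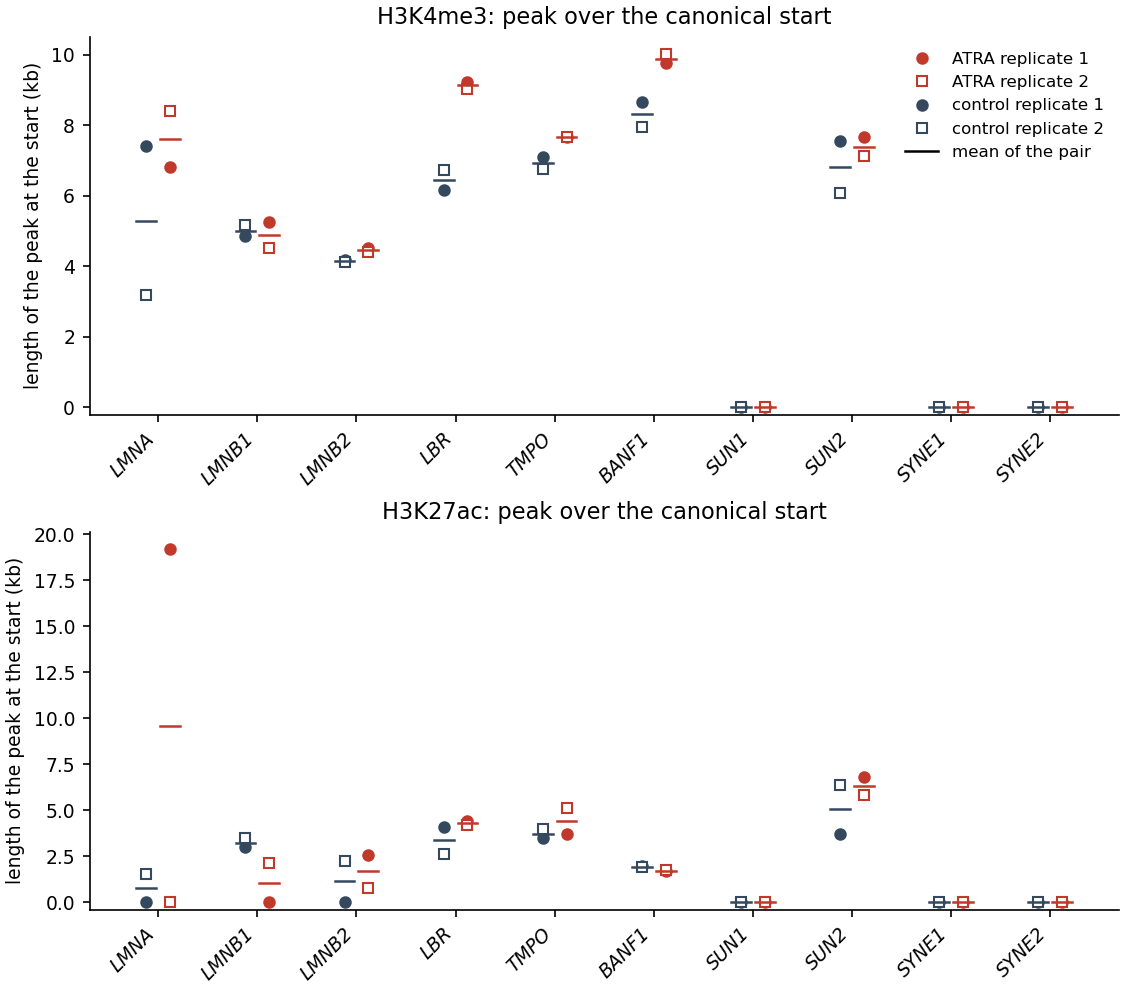
Length in kb of the peak over the canonical start in each library, for H3K4me3 above and H3K27ac below, with a short line at the mean of each pair and 0 where no peak covers the start. SUN1, SYNE1 and SYNE2 are at 0 in all libraries, and LBR is higher in both ATRA libraries for both marks, while LMNB1 and BANF1 are lower in both for H3K27ac.

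SYNE2 had the largest H3K27ac change among the genes with the mark in every library. It had 6546 and 6254 bp in ATRA and 781 and 3454 bp in the control, a log2 change of 1.39 ± 0.54 (SE, n = 2 per condition), 0.85 above the median of all regions. The limma adjusted p was 0.243 and the unadjusted limma p 0.0479. Without control replicate 1 the change was 0.73, beside 0.31 over all regions, and without control replicate 2 it was 2.05, beside 0.80. With the replicate number as a block the limma adjusted p was 0.0231, where 25.4% of all regions were called higher and 1.5% lower, and with the libraries also centred it was 0.225.

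The SYNE2 length came from a pair of blocks near the upstream start, both outside the span of the canonical transcript. The block over that start held 3217 and 3544 bp in ATRA and 781 and 1719 bp in the control. The other lay from -107.2 to -103.8 kb and held 3329 and 2710 bp in ATRA and 0 and 1735 bp in the control. For both marks the block over the upstream start also covers the start of a noncoding gene, so their marks cannot be told apart. The upstream start window printed above holds AGGTCA, the retinoid receptor half-site, at positions -242 and -199 from the start, read on the opposite strand as TGACCT. That half-site was present in 11.3% of the same windows of all protein-coding genes.

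**Figure D5:**
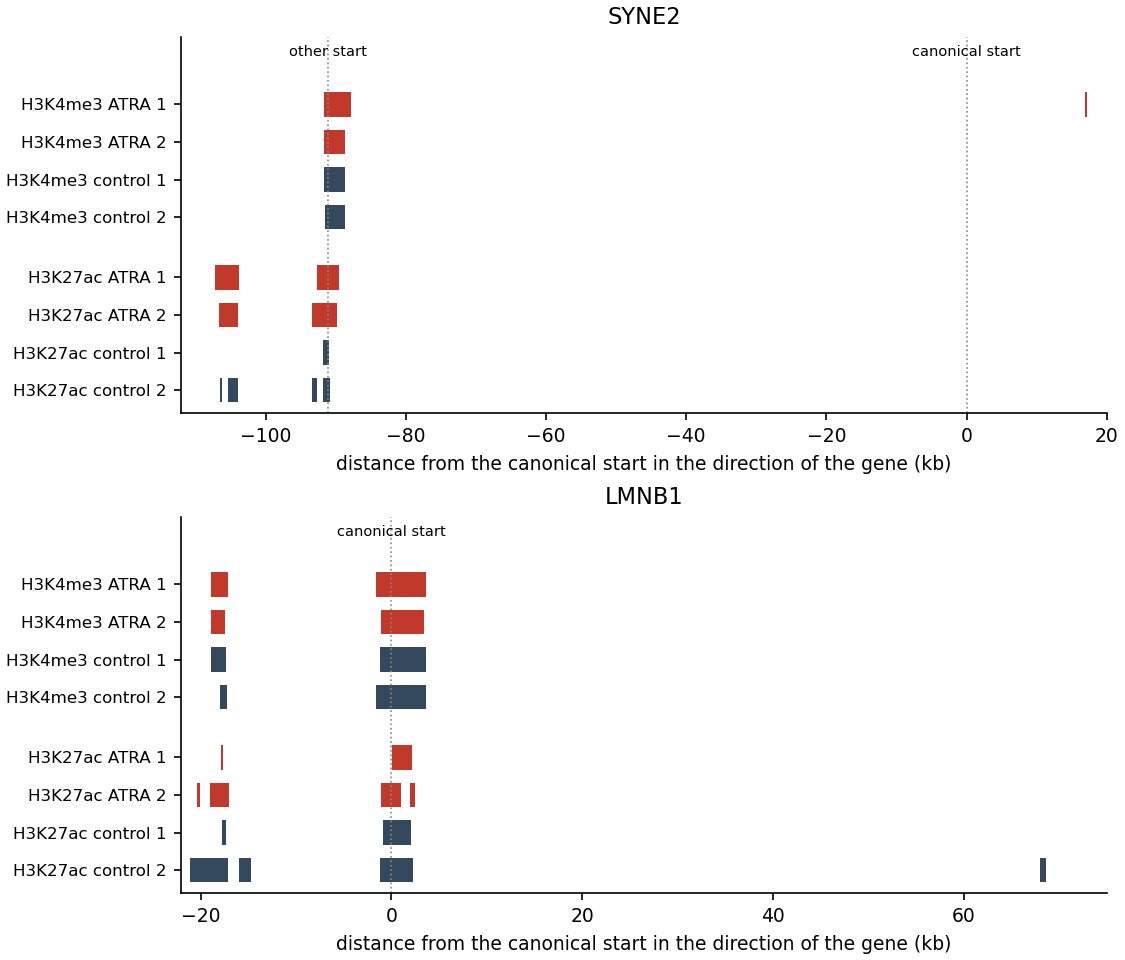
Peaks of each library as bars along SYNE2 and LMNB1, with the distance from the canonical start in kb on the x axis, read in the direction of the gene, and 1 row per library. In SYNE2 all but 1 peak lies near the upstream start at -91.1 kb, with longer H3K27ac bars in ATRA, and in LMNB1 the H3K27ac bars at the start are shorter in ATRA.

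SYNE1 was listed at 0 bp of H3K27ac in both control libraries and had 459 and 3547 bp in ATRA, so no fold is given. The limma adjusted p was 0.343 with all libraries. It was 0.0278 without ATRA replicate 1, in a fit that called 3.49% of all 13907 regions higher. ATRA was then a single library, assumed to vary like the others, and with both SYNE1 controls at 0 bp the spread came from other gene regions. SUN1 had 3541 and 2752 bp in ATRA and 1283 and 2957 bp in the control, a log2 change of 0.46 ± 0.45 (SE, limma adjusted p = 0.619), and SUN2 had 9258 and 6616 bp in ATRA and 4891 and 7400 bp in the control, a change of 0.33 ± 0.40 (SE, limma adjusted p = 0.689). Both overlapped between conditions and turned negative once centred, to -0.16 and -0.29. The SUN1 values hold the peaks of GET4, and no H3K27ac peak lay over a SUN1 start.

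For H3K27ac 0 of 10 genes passed an adjusted p of 0.05 in the limma fit, as did 0.0% of the 13907 regions in the higher and 0.0% in the lower direction. At an unadjusted p under 0.05 there was 1, SYNE2, against 20.2% of regions. Both ATRA libraries lay above both control libraries in 5 of 10 genes and below them in 0, against 47.3% and 3.97% of regions. At the canonical start, 1 of 7 genes was separated upward and 2 downward, against 30.5% and 3.67% of 8730 starts, and over any annotated start 3 of 9 were separated upward, against 32.7%. The median log2 change of the 10 genes was 0.40, beside 0.54 over all regions. LBR, BANF1, SYNE1 and SYNE2, 4 of 10, were separated upward for both marks, as were 21.2% of the 12675 regions tested for both.

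The third question was whether any single region was found in one condition only. Peaks of the 4 libraries of a mark were merged where they shared at least 1 bp, and a region counted where both libraries of one condition and neither of the other had a peak. For H3K4me3 the 10 genes held 31 merged regions, of which 18 were in all 4 libraries, 0 in ATRA only and 0 in the control only, against 3.04% and 0.758% of 19909 regions of the genome. For H3K27ac they held 50, of which 15 were in all 4 libraries, 3 in ATRA only and 0 in the control only, against 8.07% and 1.16% of 53148.

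The SYNE1 region found in ATRA only lay at chr6:152908050-152910869, in an intron of the canonical transcript 47.6 to 50.4 kb after its start, and the ATRA libraries had 459 and 2820 bp there. The LMNA region lay at chr1:156059551-156060607, between the upstream and the canonical start, with 1024 and 1025 bp. The SUN1 region lay at chr7:949377-950890, downstream of SUN1 and within the gene bodies of ADAP1 and COX19, with 1514 and 498 bp. The LMNA peaks had nearly the same ends in both replicates, at -24951 and -23928 bp in one and at -24919 and -23895 bp in the other, whereas the SYNE1 and SUN1 peaks differed in length by more than 3 times between the replicates.

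The middle of the stretch shared by both SYNE1 peaks is shown because it held the matches to the sequences searched, in capitals, while the same windows of the LMNA and SUN1 regions held none (chr6:152909651-152909950, plus strand).

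SYNE1 intronic region: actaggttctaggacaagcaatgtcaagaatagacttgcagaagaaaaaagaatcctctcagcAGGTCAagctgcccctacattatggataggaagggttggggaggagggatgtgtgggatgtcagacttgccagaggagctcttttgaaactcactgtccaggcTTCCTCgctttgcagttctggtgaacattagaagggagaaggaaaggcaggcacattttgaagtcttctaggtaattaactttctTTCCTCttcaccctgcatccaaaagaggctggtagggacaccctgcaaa

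It held 1 AGGTCA, at base 64, and 2 matches to GAGGAA, the core of sites bound by PU.1, at bases 167 and 252, both read on the opposite strand as TTCCTC. Among the same windows of all 4288 regions found in ATRA only, AGGTCA was present in 21.4% and GAGGAA in 32.3%.

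Of the canonical starts of the 10 genes, on both strands, AGGTCA was present in 2, CCAAT in 5, GGGCGG in 8 and GAGGAA in 4, beside 11.3%, 35.9%, 61.0% and 27.2% of all 20090. TGTGGT, the core of RUNX sites, and a direct repeat of AGGTCA with 5 bases between the repeats were in 0 of 10. Over all promoters they were present in 10.8% and 0.00498%. The AGGTCA windows were those of SUN1 and SYNE1, whose canonical starts had no peak of either mark in any library. Among the 11 start windows under H3K4me3 in all libraries, AGGTCA was present in 1, CCAAT in 8, GGGCGG in 7 and GAGGAA in 5. The LBR window had CCAAT at -170 and -130 and 4 copies of GGGCGG.

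Other genes of the nuclear envelope and of lamin processing were counted the same way. Of these 21 genes, 0 passed the limma test for either mark. Both ATRA libraries lay above both control libraries in 10 for H3K4me3 and in 10 for H3K27ac, against 42.8% and 47.3% of all regions, and the median log2 changes were 0.17 and 0.28. LEMD2, LEMD3, TOR1A, SYNE4 and DHCR7, 5 of 21, were separated upward for both marks, against 21.2% of regions. LEMD3, an inner membrane LEM-domain protein, had 10397 and 11802 bp of H3K4me3 in ATRA and 7250 and 6811 bp in the control, and 3822 and 10756 bp of H3K27ac against 1619 and 3419 bp. SYNE4, which encodes nesprin-4, had 3090 and 2873 bp of H3K27ac in ATRA and 429 and 1190 bp in the control. With the replicate number as a block, 4 of the 21 passed for H3K27ac, all higher, where 25.4% of all regions did.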

How the data were processed

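H3K4me3 and H3K27ac were measured by ChIP-seq in HL-60 cells, with 2 libraries per condition and mark. Per the authors' methods, cutadapt removed adapters, Bowtie placed the reads on hg19 and MACS2 called peaks in its broad mode, library by library. Their versions are not given in the sources used here. The deposited files have no header, and in the layout of broad peak files they list positions in bp, a −log10 q and, in columns left out here because their values are impossible, a fold and a −log10 p. The deposited −log10 q served only as a filter in alternatives, and it agreed little between libraries at the same peak (Spearman rho of 0.091 to 0.183 for H3K4me3 and 0.028 to 0.066 for H3K27ac). Read depth is unknown from these files, and no counting interval is given. Peaks past an end of a GRCh37 chromosome numbered 0.

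The gene models were those of GENCODE release 44 on GRCh37, and a gene's canonical start is that of its canonical transcript. Length under peaks was summed over each gene with 20 kb on each side, and log2(bp + 1000) was fitted with limma 3.58.1 (trended eBayes, R 4.3.3) over all regions with a mean of at least 500 bp, with Benjamini-Hochberg adjustment at 0.05. The scripts ran on Python 3.11.15 with pandas 2.3.3 and were checked on simulated data. Start peaks and merged regions had no test, since 0.33 is the smallest p that an exact two-sided test of this size allows, and a gene was counted where both ATRA libraries lay above or below both control libraries. Sequences were read from GRCh37.

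Peak names in the deposited files carry a common tag in ATRA and control libraries that share a replicate number. The deviations of same-numbered libraries correlated (r = 0.27 over 13981 regions for H3K4me3 and 0.53 over 13907 for H3K27ac). The numbers were read as pairs in alternatives only, with the replicate number as a block, and the main fit left the pairing out. For H3K27ac the main fit called 0.0% of regions in either direction, and the block called 25.4% higher and 1.5% lower. The members and the lists were chosen with earlier results of these data known, and 1 listed marker gene is not reported here. By rule all 10 genes were named, with the 3 longest regions per mark found in one condition only, and of 21 other envelope genes those past the test or separated in the same direction for both marks. The alternatives were other flanks, pseudocounts, filters, starts and merging distances, centring, the number of peaks, the replicate block and leaving out each library.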

Additional observations from a re-analysis of the deposited data

How the results depend on the processing

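Of 315 recomputed log2 changes of the 10 genes, 270 kept their direction, 9 were exactly 0 and 36 reversed. Centring on the median of all gene regions, with or without the replicate block, reversed the H3K4me3 changes of LMNB1 (-0.10), LMNB2 (-0.18) and TMPO (-0.0008) and the H3K27ac changes of SUN1 (-0.16), SUN2 (-0.29), TMPO (-0.37) and BANF1 (-0.28), since the all-region medians were above 0. Gene bodies alone reversed LMNB1 for H3K4me3 (-0.035) and SUN1 (-0.052) and BANF1 (-0.029) for H3K27ac, and counting peaks reversed BANF1 for H3K4me3 (-0.29) and SYNE2 for H3K27ac (-0.076). Peaks of at least 1 kb reversed SUN1 (-0.059) and BANF1 (-0.11) for H3K27ac. A −log10 q of at least 5 reversed LMNB2 (0.92) and SYNE2 (-0.46) for H3K27ac, and equal peak numbers by q, chosen after seeing the data, reversed SYNE2 for H3K4me3 (-0.84) and LBR (-1.78), SYNE2 (-0.036), TMPO (-0.56) and BANF1 (-0.63) for H3K27ac. The cause was not tested.

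With each library left out in turn, the H3K4me3 changes ran from -0.67 (without control replicate 2) to 0.41 (without control replicate 1) for LMNA, from -0.021 (without ATRA replicate 1) to 0.19 for LMNB1, from -0.064 (without control replicate 2) to 0.073 for LMNB2, and from -0.38 to 0.11 (without control replicate 1) for SUN1. The H3K27ac changes ran from -0.53 to 0.071 (without control replicate 2) for LMNB2 and from -0.0031 (without control replicate 1) to 0.50 for TMPO. Genes past the threshold numbered 0 to 1 for H3K27ac, with SYNE1 called without ATRA replicate 1, where 485 of 13907 regions were called higher against a single ATRA library and the SYNE1 controls were at 0 bp. Start peaks lower in ATRA numbered 0 to 1 for H3K4me3, and start peaks higher numbered 1 to 4 for H3K27ac. No share over all starts is given for these counts. ATRA-only regions numbered 0 to 4 for H3K4me3 (4 without ATRA replicate 1, where 15.4% of genome regions were ATRA-only) and 3 to 19 for H3K27ac (19 of 42 without ATRA replicate 2, against 29.5%, and 13 of 38 without ATRA replicate 1, against 41.7%). Control-only regions numbered 0 to 5 for H3K4me3 (5 without control replicate 2, against 9.61%) and 0 to 3 for H3K27ac (3 without control replicate 1, against 16.3%), since fewer libraries then have to agree.

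The replicate block gave 1 gene past the threshold for H3K27ac (SYNE2) in place of 0, and 1 (LMNB1) with centring as well, a setting chosen after seeing the data. Paired by replicate number, 2 start peaks were higher for H3K27ac, ATRA-only regions numbered 7 of 31 for H3K4me3 and 28 of 50 for H3K27ac, against 26.7% and 54.9% of genome regions, and control-only regions 5 and 4, against 11.2% and 19.1%. The pairing also gave 5 higher start peaks for H3K4me3 in place of 4. Gene regions moving the same way in both numbers were 7 higher and 1 lower for H3K4me3, in place of 6 and 0. For H3K27ac they were 6 and 1, in place of 5 and 0. No share over all genes is given for these paired counts of start peaks and gene regions. Over all regions, the median log2 changes within replicate numbers 1 and 2 were 0.06 and 0.27 for H3K4me3. For H3K27ac these medians were 0.60 and 0.47. Over any annotated start, 7 genes were higher for H3K4me3 and 3 for H3K27ac. Merging peaks up to 1 kb apart gave 1 ATRA-only H3K4me3 region, and a −log10 q of at least 5 left 0 ATRA-only regions and 0 lower start peaks for H3K27ac. With 2 libraries per condition and an unknown read depth, differences smaller than the spread between replicates were not detectable.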
